A study of Equus caballus with 6 samples.

Results

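The heat shock proteins described here are 8 chaperones of the cytosol (HSPA8, HSP90AA1, HSP90AB1, HSPH1, DNAJA1, DNAJB1, HSPB1 and HSPB8) and 2 of the mitochondrial matrix (HSPD1 and HSPE1). They were taken as all probe sets whose single gene symbol in the array's annotation is 1 of these 10 names, which found all 10 of them among 9155 named genes, with 16 of the 24016 non-control probe sets on the array, 14 for cytosolic and 2 for mitochondrial proteins. Total RNA of equine lamellar hoof tissue, the interlocking epidermis and dermis that hang the coffin bone in the hoof capsule, was compared between diseased tissue with laminitis (right foot, replicates 1, 3 and 4) and normal tissue (right foot, replicates 2, 3 and 4), 1 array per sample. The arrays were bovine GeneChips, chosen by the submitters for the likeness of the bovine and equine sequences. How laminitis arose, and the breed, age and number of the horses, are not given in the sources used here, so the spread between samples may be technical. The tissue is a mixture of cells, and in such bulk RNA a change in the share of a cell type and a change in RNA per cell cannot be told apart.

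Heat shock proteins hold unfolded or newly made proteins and help them reach their shape. In the cytosol, HSP70 proteins such as HSPA8 work in a cycle with J-domain partners such as DNAJA1 and DNAJB1 and with the exchange factor HSPH1, and pass some clients to HSP90. Small heat shock proteins such as HSPB1 and HSPB8 bind unfolding proteins without using ATP. In mitochondria, the barrel-shaped chaperonin HSPD1 folds imported proteins under the lid formed by HSPE1. Transcription of many of these genes is raised by the heat shock factor HSF1 when unfolded proteins accumulate.

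All values are linear processed signals as deposited, and every array has nearly the same trimmed mean. Array medians ran from 86.7 to 96.6, and only probe sets brighter than the median of the array on at least 3 of the 6 arrays entered the test. This left 12519 probe sets and 10 of the 16 heat shock probe sets, 1 for each gene. Signals of different probe sets also depend on how well the bovine probes match the horse transcript, so the 10 genes are not ordered by level. Differences are log2, laminitis minus normal, with limma's standard error, and p was adjusted by Benjamini-Hochberg over all 12519 probe sets.

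None of the heat shock probe sets passed the test, in which 0 of 12519 probe sets were called in either direction (0% of those tested). The smallest adjusted p was 0.355 for HSPD1 and the largest was 0.895 for DNAJB1, by limma. All 10 tested heat shock probe sets had a positive log2 difference, against 43.7% of all tested probe sets. Their median was 0.75, against -0.056 over all tested probe sets. It fell to 0.52 after quantile and 0.47 after cyclic loess normalization, against -0.034 and -0.021 over all tested probe sets. Over all 16 probe sets, the 6 dim ones included, 11 differences were positive and 5 negative, and the median was 0.40. Limma gave 4 heat shock probe sets higher, those of HSPD1, HSP90AA1, HSPB1 and HSPE1, and 0 lower at an unadjusted p under 0.05, against 4.82% higher and 4.97% lower over all tested probe sets. That count was 2 after quantile or cyclic loess normalization, where HSPD1 and HSP90AA1 were left.

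HSPD1 and HSPE1, the mitochondrial pair, had signals on every laminitis array above those on every normal array. HSPD1 gave 3412, 3883 and 1523 on laminitis replicates 1, 3 and 4, against 1029.5, 1141 and 1050.35 on normal replicates 2, 3 and 4. Laminitis replicates 1 and 3 were more than 3 times the geometric mean of the normal arrays (3.18 and 3.62), and replicate 4 was 1.42 times that mean. The signal averaged 2939 ± 1249 in laminitis and 1074 ± 59.5 in normal tissue (SD, n = 3 each), so nearly all of the spread lay among the diseased samples. The log2 difference of HSPD1 was 1.34 ± 0.36 (SE), a 2.54-fold difference of geometric means with a 95% interval of 1.40 to 4.60, at an unadjusted p of 0.00762 in limma and the adjusted p given above.

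HSPE1 gave 4516, 4536 and 1934 on laminitis replicates 1, 3 and 4, against 1674, 1865 and 1626 on normal replicates 2, 3 and 4. Replicate 4 was again the lowest diseased array, here just above the normal range, and the other diseased samples lay far above it. The log2 difference was 0.99 ± 0.36 (SE), or 1.98-fold with a 95% interval of 1.11 to 3.55 (limma adjusted p 0.48). After quantile or cyclic loess normalization it was 0.63 or 0.70 and the groups overlapped. The median of the mitochondrial pair was 1.17, and that of the 8 tested cytosolic probe sets 0.49; the difference between these medians was not tested.

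In humans, the genes of HSPD1 and HSPE1 lie head to head and share a promoter between them. Within each array, log2 HSPD1 minus log2 HSPE1 was -0.40, -0.22 and -0.34 on laminitis replicates 1, 3 and 4, against -0.70, -0.71 and -0.63 on normal replicates 2, 3 and 4. The signal of HSPD1 relative to that of HSPE1 was thus higher on each diseased array, by 0.36 on the log2 scale, with SDs of 0.092 in laminitis and 0.043 in normal tissue (n = 3 each). This pair was 1 of 4 chosen after the values were seen, and none has a test. The groups overlapped in the other three, HSP90AA1 minus HSP90AB1, HSPA8 minus HSPH1 with a shift of -0.76, and HSPB1 minus HSPB8 with a shift of 0.52. The shift was 0.40 after quantile normalization and also 0.40 after cyclic loess, and the groups stayed apart in both. As the plot of within-array differences shows, it included laminitis replicate 4, the diseased array on which both transcripts were closest to normal.

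**Figure D1:**
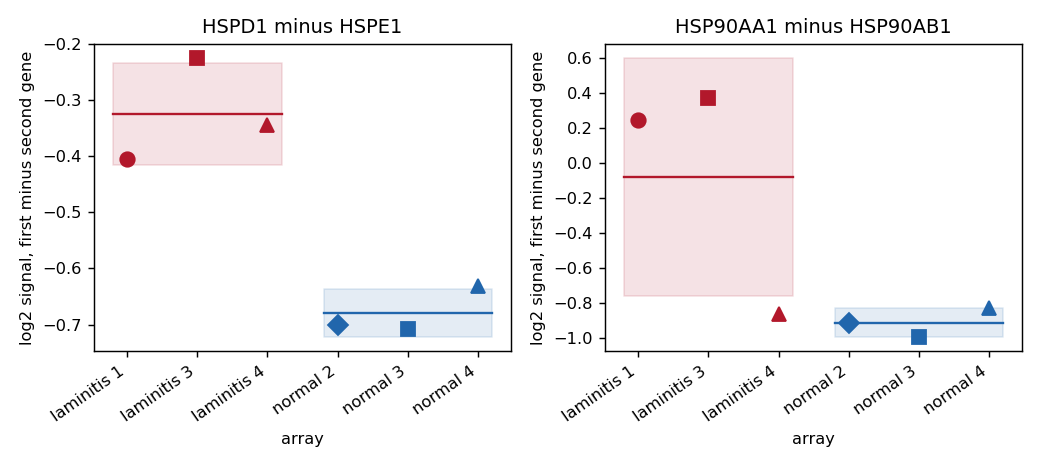
Within-array log2 signal of HSPD1 minus HSPE1 (left) and of HSP90AA1 minus HSP90AB1 (right) on each of the 6 arrays, with the group mean as a line and 1 SD as a band (n = 3 each). The 3 laminitis arrays lie between -0.40 and -0.22 in the left panel, above the normal arrays at -0.71 to -0.63, while in the right panel laminitis replicate 4, at -0.86, lies among the normal arrays.

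HSP90AA1, the stress-inducible form of cytosolic HSP90, gave 1123, 1095 and 466 on laminitis replicates 1, 3 and 4, against 381, 369 and 429 on normal replicates 2, 3 and 4. As for the mitochondrial pair, replicates 1 and 3 were high and replicate 4 was 1.19 times the normal geometric mean. The log2 difference was 1.08 ± 0.36 (SE), or 2.12-fold with a 95% interval of 1.17 to 3.83 (limma adjusted p 0.452). A second HSP90AA1 probe set lay below the array median on all 6 arrays, at 18.6 to 24.8 in laminitis and 7.93 to 19.9 in normal tissue, and its difference of 0.61 was 0.18 without normal replicate 4.

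HSP90AB1, the constitutive form, gave 946, 844 and 849 on laminitis replicates 1, 3 and 4, against 719.7, 736 and 761 on normal replicates 2, 3 and 4. The groups did not overlap, but the step was small, 0.25 ± 0.18 on the log2 scale, or 1.19-fold with a 95% interval of 0.89 to 1.59 (limma adjusted p 0.67). It was 0.086 after quantile and 0.12 after cyclic loess normalization, with the groups still apart. The array's naming marks this probe set as one that can read more than 1 transcript. Within an array, log2 HSP90AA1 minus log2 HSP90AB1 was 0.25, 0.37 and -0.86 on laminitis replicates 1, 3 and 4, against -0.92, -0.99 and -0.83 on normal replicates 2, 3 and 4. On 2 of the 3 diseased arrays the inducible form was thus high relative to the constitutive one, and the third lay inside the normal range.

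**Figure D2:**
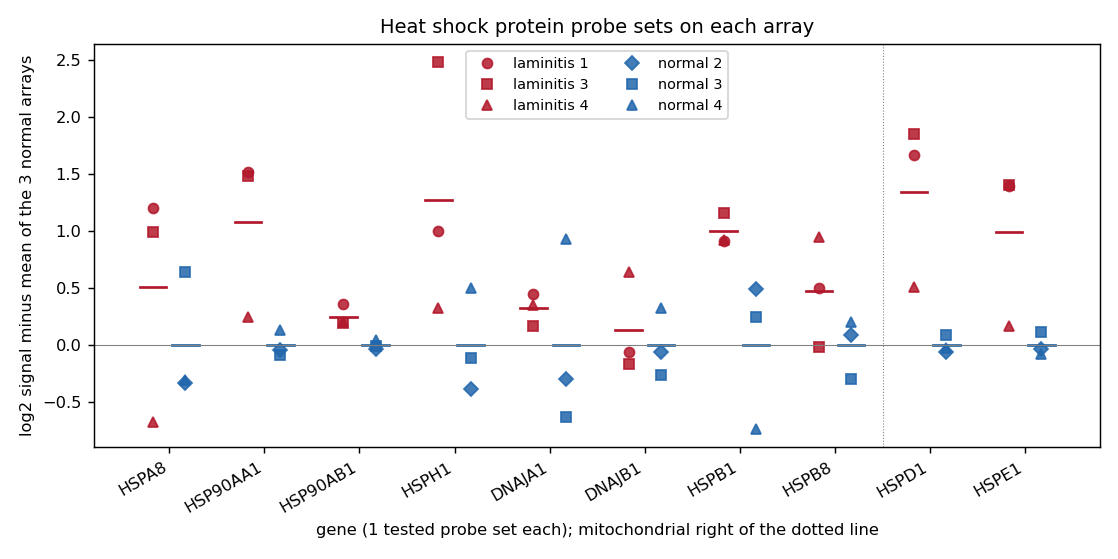
Log2 signal of the 10 tested heat shock probe sets on each array, relative to the mean of the 3 normal arrays, with laminitis arrays left of normal arrays for each gene and group means as bars. For HSPD1, HSPE1 and HSP90AA1, laminitis replicates 1 and 3 lie well above replicate 4, which for HSPB8 and DNAJB1 is the highest of the laminitis arrays.

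Among the proteins of the HSP70 cycle, HSPA8, the constitutive cytosolic HSP70, gave 2846, 2454 and 774 on laminitis replicates 1, 3 and 4, against 978, 1926 and 1001 on normal replicates 2, 3 and 4. The groups overlapped: laminitis replicate 4 was the lowest of the 6 arrays, and normal replicate 3 lay nearer to the 2 high diseased samples than to the other normal ones. The log2 difference of 0.51 ± 0.54 (SE; limma adjusted p 0.785) had a 95% interval from -0.76 to 1.78. It ranged from 0.16 without laminitis replicate 1 to 1.10 without laminitis replicate 4, and was 0.23 after quantile and 0.28 after cyclic loess normalization.

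HSPH1, the HSP110 that exchanges nucleotide on HSP70, gave 902, 2513 and 563 on laminitis replicates 1, 3 and 4, against 345, 416 and 635 on normal replicates 2, 3 and 4 for its brightest probe set. Replicate 3 alone was 5.58 times the normal geometric mean, and replicate 4 lay within the normal range. The log2 difference was 1.27 ± 0.55 (SE; limma adjusted p 0.517), or 2.41-fold, and 0.66 without laminitis replicate 3. The 3 other HSPH1 probe sets lay below the array median on at least 4 arrays, and their differences were negative, at -0.12, -0.45 and -0.63. On 2 of these 3, laminitis replicate 3 was again the highest array, at 181 and 265.

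DNAJA1 and DNAJB1, J-domain proteins that deliver clients to HSP70, had overlapping groups. DNAJA1 gave 105, 86.4 and 97.9 on laminitis replicates 1, 3 and 4, against 62.5, 49.6 and 146 on normal replicates 2, 3 and 4, close to the array medians, and passed the filter on exactly 3 arrays. Its log2 difference of 0.32 ± 0.40 (SE; limma adjusted p 0.819) was 0.79 when normal replicate 4 was left out, and 0.0051 when normal replicate 3 was. The tested DNAJB1 probe set gave 191, 178 and 312 on laminitis replicates 1, 3 and 4, against 191, 166 and 251 on normal replicates 2, 3 and 4. Replicate 4 was the highest in each group, and the log2 difference of 0.14 ± 0.29 (SE) became -0.12 without laminitis replicate 4. The dim second DNAJB1 probe set had a difference of -0.39.

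HSPB1, a small heat shock protein abundant in keratinocytes, was bright on all arrays. It gave 12684, 15116 and 12787 on laminitis replicates 1, 3 and 4, against 9486, 8003 and 4062 on normal replicates 2, 3 and 4. Here laminitis replicate 4 was as high as the others, and the larger spread lay among the normal arrays: the signal averaged 13529 ± 1375 in laminitis and 7184 ± 2804 in normal tissue (SD, n = 3 each). The log2 difference was 1.00 ± 0.34 (SE), or 2.00-fold with a 95% interval of 1.15 to 3.46 (limma adjusted p 0.455), and 0.63 without normal replicate 4. It was 0.62 after quantile and 0.51 after cyclic loess normalization, where the groups overlapped. Of the 4 basal keratinocyte markers on the array, none of which was at 0, KRT14 and ITGB4 were also lowest on normal replicate 4, while KRT5 was lowest on laminitis replicate 3 and COL17A1 on laminitis replicate 1. The 4 summed to 1020 to 1718 in laminitis and 581 to 1434 in normal tissue, and their part in the HSPB1 difference was not tested. A dim second HSPB1 probe set, between 20.8 and 37.2 on all arrays, had a difference of -0.14.

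HSPB8, a small heat shock protein that acts with the HSP70 partner BAG3, gave 1295, 904 and 1761 on laminitis replicates 1, 3 and 4, against 975, 746 and 1054 on normal replicates 2, 3 and 4. Replicate 3 was the lowest and replicate 4 the highest in both groups, and the groups overlapped. The log2 difference was 0.48 ± 0.29 (SE; limma adjusted p 0.63), with a 95% interval from -0.22 to 1.17. It was 0.24 without laminitis replicate 4, 0.72 without laminitis replicate 3, 0.28 after quantile and 0.30 after cyclic loess normalization.

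**Figure D3:**
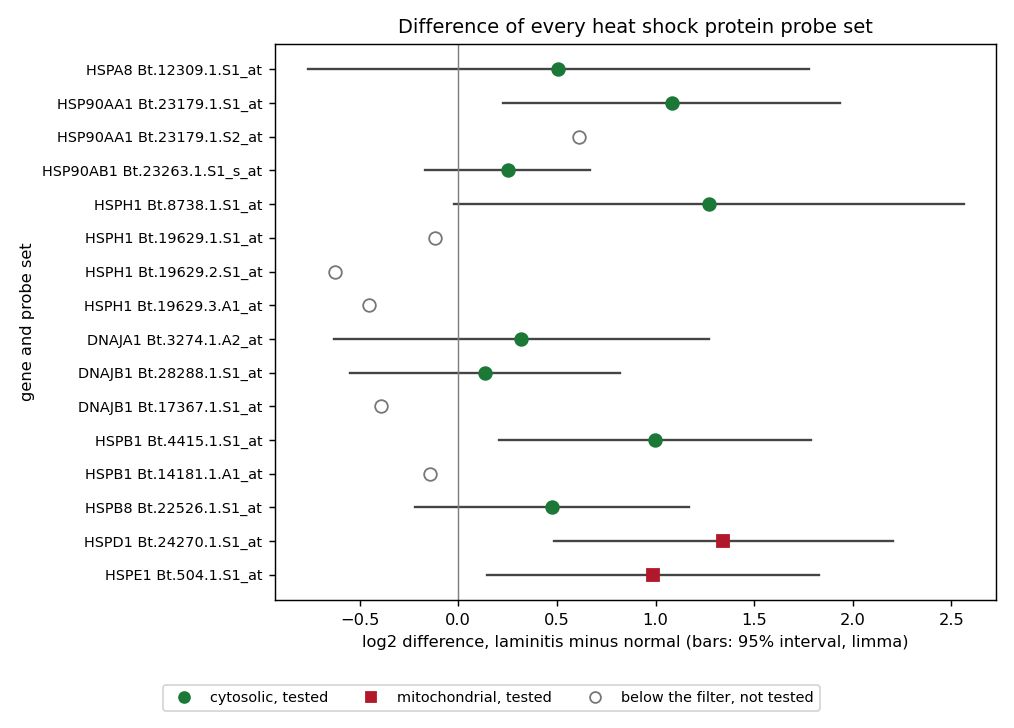
Log2 difference, laminitis minus normal, of all 16 heat shock probe sets, with limma's 95% interval for the 10 that were tested (filled) and without one for the 6 dim ones (open). The filled points run from 0.14 for DNAJB1 to 1.34 for HSPD1, and 5 of the 6 open points are negative.

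Across the 10 tested probe sets, the groups did not overlap for 5 higher (HSPD1, HSPE1, HSP90AA1, HSP90AB1 and HSPB1) and 0 lower, against 7.89% higher and 8.92% lower over all tested probe sets. After quantile or cyclic loess normalization 3 did not overlap, namely HSPD1, HSP90AA1 and HSP90AB1. The share over all tested probe sets was not computed after these normalizations, so that count of 3 has no background beside it. Laminitis replicate 4 was the lowest laminitis array for 5 of the 10, HSPA8, HSP90AA1, HSPH1, HSPD1 and HSPE1, and for 32.8% of all tested probe sets. Without it, limma gave 6 heat shock probe sets higher at an unadjusted p under 0.05 and 0 past the adjusted threshold, the smallest adjusted p being 0.0945 for HSPD1. Over all probe sets, 5.42% were higher at that unadjusted p without this array, and 2 passed the adjusted threshold. The array was singled out as low for these same probe sets, so the count of 6 is not separate support. Leaving out any other array gave 2 or 4 heat shock probe sets higher at that unadjusted p.

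Of the neutrophil markers, S100A8 and S100A9 also stood lower on laminitis replicate 4 than on the other diseased arrays, while ELANE and MPO did not. The 4 neutrophil markers on the array, none at 0, summed to 12992, 9885 and 1495 on laminitis replicates 1, 3 and 4, against 983, 503 and 531 on normal replicates 2, 3 and 4. The laminitis sums are mostly S100A8 and S100A9, which keratinocytes under stress also make. Both were higher on every laminitis array than on any normal array, and ELANE and MPO were lower on each. Their part in the heat shock differences was not tested. By the brightest probe set of each, 4 of 4 basal keratinocyte and 6 of 6 dermal fibroblast markers on the array passed the filter. VWF and TEK of endothelium, MYH11 of smooth muscle and CSF1R of macrophages were below it. The filter is a cut relative to the array median, passed by 12519 of 24016 probe sets, and is not a detection call. Summed dermal fibroblast markers were 7595, 10754 and 28688 on laminitis replicates 1, 3 and 4, against 7041, 12802 and 28083 on normal replicates 2, 3 and 4. Replicate 4 was thus far the highest in both groups. Among these markers, DCN was lower on every laminitis array than on any normal array, and PDGFRA was higher. Endothelial sums ran from 408 to 644 in laminitis and 522 to 632 in normal tissue, smooth muscle sums from 2270 to 3629 in laminitis and 3283 to 3969 in normal tissue, and monocyte and macrophage sums from 665 to 791 in laminitis and 558 to 588 in normal tissue. Of the 4 tested monocyte and macrophage markers 2 were higher in laminitis, CYBB and MSR1. CYBB was 233 to 265 in laminitis and 37.4 to 107 in normal tissue. CD14 and CD68 were lower on average in laminitis, with overlapping groups. CSF1R, below the filter, was 42.5 to 52.8 in laminitis and 54.1 to 112 in normal tissue. The 3′ to 5′ signal ratio of the GAPDH control, a measure of RNA integrity and labelling, was 9.70, 4.06 and 4.74 on laminitis replicates 1, 3 and 4, against 6.87, 5.51 and 6.80 on normal replicates 2, 3 and 4. That of the actin control was 6.62, 4.71 and 4.78 on laminitis replicates 1, 3 and 4, against 6.25, 2.08 and 4.24 on normal replicates 2, 3 and 4. The groups overlapped in both ratios, and laminitis replicate 1 was the highest array in both. The part of RNA integrity in the heat shock differences was not tested.

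Among the other genes of the chaperone system, 67 were listed, 50 had a probe set and 37 had a tested one, of which the brightest stood for the gene. By limma, 0 passed adjusted over all probe sets, 5 were higher and 0 lower at an unadjusted p under 0.05, against 4.82% and 4.97% over all tested probe sets. Positive differences were found for 24 of the 37, against 43.7% over all tested probe sets, and the median was 0.17. HSP90B1, the HSP90 of the endoplasmic reticulum, gave 6275, 3774 and 1606 on laminitis replicates 1, 3 and 4, against 895, 1120 and 1540 on normal replicates 2, 3 and 4 (log2 difference 1.54 ± 0.50, SE). HSPA5, the HSP70 of that compartment, had 0.84 ± 0.31, or 0.46 after quantile and 0.36 after cyclic loess normalization, and 0.57 by its other tested probe set. As deposited, both reticulum paralogues kept their groups apart, as HSP90AA1 did and HSPA8 did not. For both the gap was narrow: on laminitis replicate 4 against normal replicate 4, HSPA5 was 9248 against 8915 and HSP90B1 was 1606 against 1540.

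DNAJB6, a J-domain protein that holds back aggregation, had 0.65 ± 0.21, or 0.27 after quantile and 0.34 after cyclic loess normalization, and was 3864, 3931 and 3150 on laminitis replicates 1, 3 and 4, against 2575, 1972 and 2438 on normal replicates 2, 3 and 4. The transcription factor HSF1 had 0.76 ± 0.28, with 202, 255 and 179 on laminitis replicates 1, 3 and 4, against 155, 88.1 and 138 on normal replicates 2, 3 and 4, and 0.94 by its other tested probe set. PTGES3, the HSP90 partner p23, had 1.07 ± 0.45, with overlapping groups. Limma adjusted p for HSP90B1, HSPA5, DNAJB6, HSF1 and PTGES3 lay between 0.445 and 0.508.

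The mitochondrial HSP70 HSPA9 had 0.71 ± 0.42, with laminitis arrays at 104 to 119 and normal arrays at 34.1 to 103, with normal replicate 2 far below the other normal arrays. Apart from that array the signals were near the array medians, and the probe set passed the filter on 4 arrays, every laminitis array among them. The lowest laminitis value, 103.6, was barely above the highest normal value, 102.8. Its other probe set was not tested. TRAP1, the mitochondrial HSP90, was below the filter. PPID, a cyclophilin partner of HSP90, had 0.32 ± 0.21, and HSPB6, a small heat shock protein of muscle, had -0.50 ± 0.33. HSPA1A, the heat-inducible cytosolic HSP70, was singled out after its values were seen: it gave 155, 109 and 250.3 on laminitis replicates 1, 3 and 4, against 213, 214 and 124 on normal replicates 2, 3 and 4. Its groups overlapped and its difference was -0.14 ± 0.37 (limma adjusted p 0.918), from a probe set whose name marks it as able to read more than 1 transcript. Other tested HSPA1A probe sets lay between -0.29 and 0.052.

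**Figure D4:**
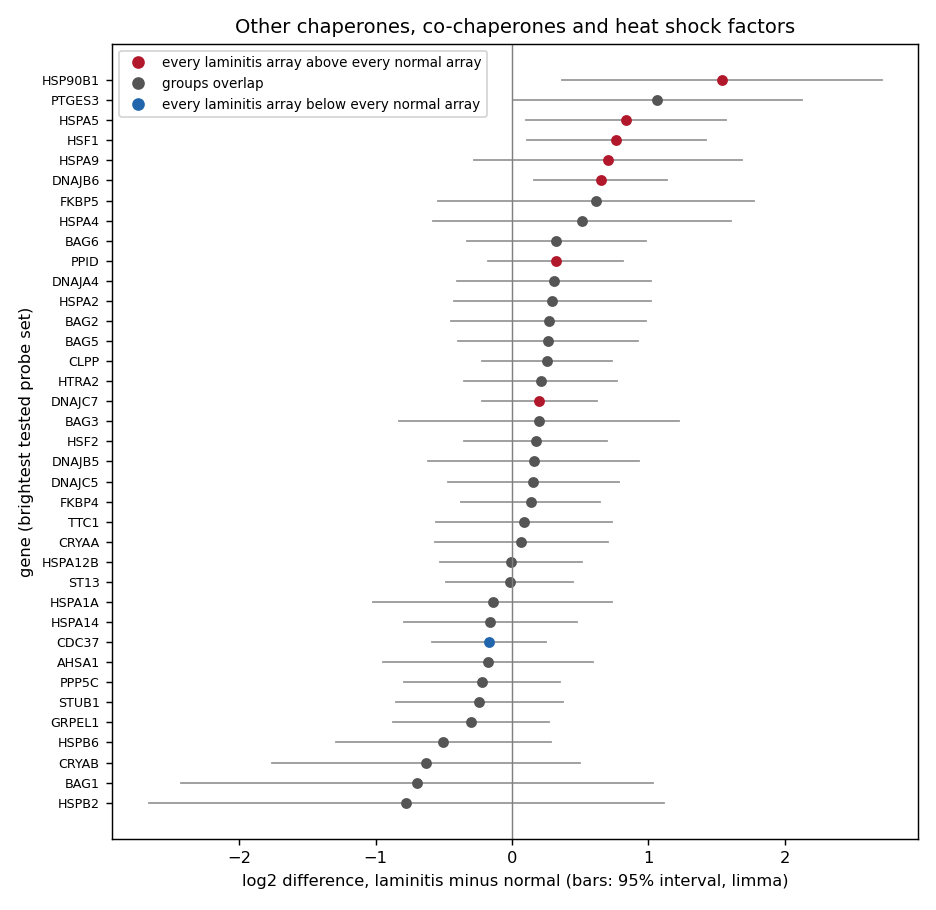
Log2 difference, laminitis minus normal, of the brightest tested probe set of 37 other chaperones, co-chaperones and heat shock factors, with limma's 95% interval. HSP90B1 at 1.54 and PTGES3 at 1.07 lie at the top, HSPB2 at -0.77 at the bottom, and the groups did not overlap for 7 higher and 1 lower, against 7.89% and 8.92% over all tested probe sets. Among the 7, the lowest laminitis and highest normal signals were nearly equal for PPID (107.8 and 107.5) and HSPA9 (103.6 and 102.8).

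The profile of the 10 tested heat shock probe sets over the 6 arrays, taken as the mean of their centred log2 values, was compared with 7600 other tested probe sets of 1 symbol. The 5 most alike genes by Pearson's r over 6 arrays were NFKB2, SLC25A28, CHIC2, VMP1 and CFB, with r of 0.996 for NFKB2 down to 0.985 for CFB, and 46 probe sets had an r over 0.95. This is a description of arrays that share 2 groups. SLC25A28, a mitochondrial iron carrier, shows the shape: it gave 720.4, 722 and 266 on laminitis replicates 1, 3 and 4, against 91.4, 98.1 and 102 on normal replicates 2, 3 and 4. As for HSPD1, 2 diseased arrays were high, the third was intermediate, and the normal arrays lay close together.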

How the data were processed

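The authors deposited a linear intensity for each probe set on each array, made from biotin-labelled cRNA on Affymetrix bovine GeneChips, per the labels' protocols. GCRMA is named, without a version, in the submitters' processing notes; the authors' deposited intensities share a mean of 150.02 or 150.03 on each array after trimming 2% at each end and run from 0.0386 to 38469, features of 1 scaling factor per array, so the step that made them is not settled. Detection calls were not used here. Of 24128 rows, 112 controls were left out. Bovine symbols came from the platform's annotation in GEO and may be out of date.

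Log2 values with no offset were fitted for laminitis against normal with lmFit and eBayes (limma 3.58.1, R 4.3.3; two-sided, prior of 3.02 degrees of freedom), with Benjamini-Hochberg adjustment over 12519 tested probe sets and a threshold of 0.05. The procedure was tested on simulated data. The members and lists were chosen with earlier results of these data known. Named from the list of 67 are the 8 genes of smallest p and the paralogues HSPA5, HSP90B1, HSPA9 and TRAP1; HSPA1A, and HSPB2 in a caption, were added after their values were seen. No pair of arrays held identical values. The number of arrays limits the precision. Alternatives were other filters, normalizations, an added 64, variance models, the replicate number as a block, and leaving out each array.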

Additional observations from a re-analysis of the deposited data

How the results depend on the processing

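The number of heat shock probe sets past the adjusted threshold was 0 under every alternative run, with the smallest adjusted p among them between 0.0945 and 0.712 over the alternatives. Over all probe sets, 6 were called with the filter above the median on all 6 arrays, 4 with an intensity trend and robust variance, and 0 to 2 with 1 array left out, the 2 without laminitis replicate 4. The number of heat shock probe sets higher at an unadjusted p under 0.05, 4 as reported, was 2 after quantile normalization, cyclic loess, an ordinary linear model or the replicate block, where 4.55%, 4.84%, 4.48% and 3.32% of all probe sets were. It was 5 with the filter on all 6 arrays, median centring, an added 64, an intensity trend or array weights (5.28% to 6.32% of all). With 1 array left out it was 2 to 6 (3.42% to 5.42% of all). HSPD1 was among them each time. Of the 5 heat shock probe sets whose groups did not overlap, 3 were left after quantile or cyclic loess normalization, where the share over all probe sets was not computed. The median over tested heat shock probe sets, 0.75 as reported, was 0.47 after cyclic loess, 0.40 with no filter, which takes in the dim probe sets, and 0.62 to 1.07 with 1 array left out. The cytosolic median, 0.49, was 0.29 with no filter, and 0.36 to 0.67 with 1 array left out. The DNAJB1 difference ranged from -0.12 without laminitis replicate 4 to 0.30 without normal replicate 4. That of HSPA8 was -0.011 with the replicate block. Replicate numbers 1 and 2 each occur in 1 group only, so the block compares only the arrays numbered 3 and 4. Numbers 3 and 4 occur in both groups, and the labels do not say whether same-numbered arrays are pairs. Deviations of same-numbered arrays correlated at -0.017 and -0.031 over all tested probe sets. These values cannot settle whether the arrays share an animal or a batch, and the main fit took no pairs. Of 37 other chaperone genes, 23 to 26 were positive under the 3 other normalizations. Dim probe sets limit what can be said of the second probe sets of HSP90AA1, HSPH1, DNAJB1 and HSPB1.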
